A study of Mus musculus with 22 samples.

Results

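The genes described here are 10 markers of liver endothelial cells, Stab1, Stab2, Lyve1, Clec4g, Fcgr2b, Oit3, Kdr, Cdh5, Pecam1 and Vwf. They were taken by gene symbol from the deposited count tables, where they are 10 of 45777 genes. All 10 had counts in every library, between 81 and 2448 per library, and all 10 passed the filter on low counts in both cohorts. The RNA came from whole liver of male C57BL/6J wild-type mice, in 22 polyA libraries that form 2 cohorts of 11, each with its own normal-diet group. In the HFD cohort, 4 livers came from mice on a high-fat diet given DTMB, 4 from mice on the same diet given vehicle, and 3 from mice on normal diet given vehicle. In the MCD cohort, 3 livers came from mice on a methionine- and choline-deficient diet given DTMB, 4 from mice on that diet given vehicle, and 4 from mice on normal diet given vehicle. DTMB, known here only by that code, was dosed orally, 10 mg/kg daily. The labels class the high-fat livers as fatty liver disease and the deficient-diet livers as steatohepatitis. The labels state neither age nor time on diet. In whole liver, fewer cells of a type and less RNA per cell cannot be told apart.

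The liver sinusoid is lined by endothelial cells that have open pores and almost no basement membrane. They are among the most active scavenger cells of the body and clear hyaluronan, modified lipoproteins, collagen fragments and small immune complexes from the blood. In chronic liver injury these cells can lose their pores and scavenger receptors and gain a basement membrane, a change known as capillarization. Of the 10 markers, Stab1 and Stab2 encode the stabilins, scavenger receptors for modified lipoproteins, and Stab2 is the main sinusoidal receptor for hyaluronan. Lyve1 encodes a hyaluronan receptor of sinusoidal and lymphatic endothelium, Clec4g a C-type lectin of sinusoidal cells, and Fcgr2b the inhibitory IgG receptor with which these cells take up immune complexes. Oit3 encodes a secreted zona pellucida domain protein made by sinusoidal cells. Kdr encodes VEGF receptor 2, Cdh5 the adherens junction protein VE-cadherin, Pecam1 the junctional adhesion molecule CD31, and Vwf the von Willebrand factor that tethers platelets and is best known from larger vessels.

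Positions are those of the mouse GRCm38.p6 RefSeq annotation, of the same build as the mm10 counts. Stab1 lies on chr14:31139017-31168651, Stab2 on chr10:86841194-87008038 and Kdr on chr5:75932827-75979072, all on the minus strand. Lyve1 (chr7:110850607-110862953), Oit3 (chr10:59422960-59441779), Pecam1 (chr11:106654213-106715281), Clec4g (chr8:3707066-3720695) and Fcgr2b (chr1:170960558-170976071) are also on the minus strand. Cdh5 (chr8:104101613-104144504) and Vwf (chr6:125552948-125686679) are on the plus strand. Stab1 shares 108 bases at its 3′ end with Nt5dc2, which had 92 to 1162 counts per library. The strand setting of the counting is not stated in the labels, so reads of that stretch cannot be assigned to either gene. The RefSeq promoter table of GRCm38.p6 held 5 of the 10 genes. The promoters of Stab1, Stab2 and Kdr are shown as the genes among these 5 that were called in any comparison. Each runs 5′ to 3′ from 250 bases before the start of the transcript to 50 bases after it, and capitals mark matches to the motifs searched.
Stab1 (chr14:31168592-31168891, minus strand): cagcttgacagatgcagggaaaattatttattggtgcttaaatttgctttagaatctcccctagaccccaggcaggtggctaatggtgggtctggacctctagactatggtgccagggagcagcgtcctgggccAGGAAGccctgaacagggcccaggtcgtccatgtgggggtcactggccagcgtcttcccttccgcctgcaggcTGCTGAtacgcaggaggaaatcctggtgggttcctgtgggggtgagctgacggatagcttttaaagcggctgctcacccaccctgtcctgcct
Stab2 (chr10:87007893-87008192, minus strand): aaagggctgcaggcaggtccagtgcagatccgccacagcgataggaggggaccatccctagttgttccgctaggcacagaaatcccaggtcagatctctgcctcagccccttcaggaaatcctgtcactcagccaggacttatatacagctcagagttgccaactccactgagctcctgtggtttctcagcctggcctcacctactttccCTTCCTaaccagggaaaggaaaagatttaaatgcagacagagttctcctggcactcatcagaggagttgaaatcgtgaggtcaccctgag
Kdr (chr5:75978406-75978705, minus strand): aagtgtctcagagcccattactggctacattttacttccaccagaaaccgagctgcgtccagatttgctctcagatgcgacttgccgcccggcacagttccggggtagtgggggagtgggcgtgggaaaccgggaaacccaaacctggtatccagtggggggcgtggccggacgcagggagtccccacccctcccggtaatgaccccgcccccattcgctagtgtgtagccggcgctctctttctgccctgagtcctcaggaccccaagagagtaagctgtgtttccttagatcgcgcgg
The motifs were searched on both strands: AGGAAG of the ETS family, AGATAA and TGATAA of the GATA family, TGTTTAC of the forkhead family, TGCTGA of the MAF family and ACAATG of the SOX family. The capitals in Stab1 are AGGAAG and TGCTGA, and those in Stab2 are AGGAAG read on the other strand. No motif matched in the Kdr window. AGGAAG was present in 35.4% of the 32851 promoter windows of the table and TGCTGA in 19.5%, so these matches describe the letters and identify no binding site. The other shares were 11.2% for AGATAA, 9.05% for TGATAA, 3.65% for TGTTTAC and 12.6% for ACAATG.

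Library totals ran from 50.1 to 66.7 M counts. The 4 hepatocyte markers, which check the liver label, had a median sum per group of 73280 to 81090 CPM in the HFD cohort and of 64300 to 88250 CPM in the MCD cohort. Transcripts of pancreatic acinar cells summed to more than 100 CPM (counts as a share of the scaled library total) in 6 libraries: normal-diet replicates 1 and 3, HFD vehicle replicates 1 and 4 and HFD DTMB replicate 3 of the HFD cohort, and normal-diet replicate 4 of the MCD cohort. Normal-diet replicate 1 of the HFD cohort also held 156 CPM of skeletal muscle transcripts, against at most 4.82 CPM in any other library. Their part in the endothelial values was not tested. Without these libraries 0 of 16101 genes were called in HFD DTMB against HFD vehicle livers, so every call of that comparison given here is lost, and 4.07% were called in HFD vehicle against normal-diet livers. For the 10 markers the values without these libraries are given beside the calls. All levels are CPM scaled by TMM (trimmed mean of M-values) cohort by cohort, and a level in one cohort cannot be set against a level in the other. Called genes are those with an adjusted p below 0.05 in edgeR's quasi-likelihood test over all genes.

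The level per kilobase of the longest coding transcript differed widely among the 10 genes. In the HFD cohort Clec4g averaged 18.7, 18.3 and 20.9 CPM per kb in HFD DTMB, HFD vehicle and normal-diet livers, and was first in each group. Vwf was last in every group of both cohorts and stood at 0.919 ± 0.312 CPM per kb in normal-diet livers of the HFD cohort (SD, n = 3). Oit3, at 7.05 ± 0.701, was next below Clec4g in that group, and the libraries of Oit3 and Fcgr2b (6.84 ± 0.661) overlapped. The stabilins, Stab2 at 3.17 ± 0.45 and Stab1 at 3.00 ± 0.333 CPM per kb, overlapped each other.

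**Figure D1:**
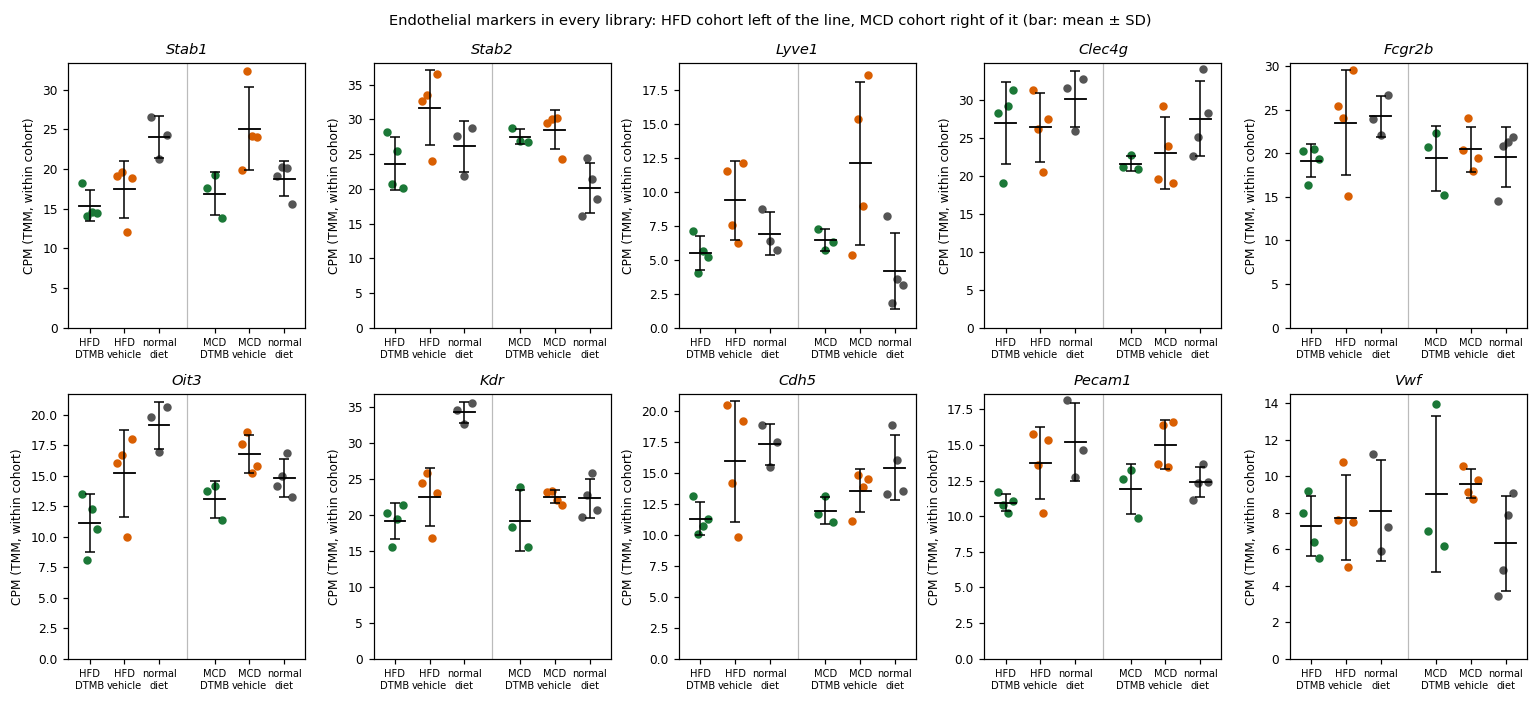
CPM of each of the 10 endothelial markers in every library; each point is 1 liver and each bar the mean ± SD of its group, with the HFD cohort left of the grey line and the MCD cohort right of it. The 3 normal-diet livers of the HFD cohort lie between 32.6 and 35.5 CPM for Kdr, above all 4 HFD vehicle livers, and the third HFD vehicle liver is the lowest of its group in all 10 panels.

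On the high-fat diet, Kdr and Stab1 fell and no marker of the 10 rose. They are 2 of 10 called, both lower, where 27.8% of all 15597 genes tested were called, 12.6% lower and 15.2% higher. The median log2 fold change of the 10 was -0.13, beside 0.02 for all genes tested. Of the 10, 8 had a negative fold change. The markers vary together within groups, so their signs, here and in the comparisons below, are not 10 separate results.

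Kdr stood at 24.4, 25.8, 16.7 and 23.0 CPM in the HFD vehicle livers, against 34.6, 32.6 and 35.5 CPM in normal-diet livers. Every HFD vehicle liver was below every normal-diet liver, as in 17% of all genes, while 19% lay above in that way. The log2 fold change was -0.61 ± 0.139 (SE, adjusted p = 0.00714), and Kdr was called without each of the 7 libraries in turn (adjusted p = 0.00708 to 0.0247). Stab1 stood at 19.1, 19.6, 12.0 and 18.9 CPM in HFD vehicle livers, against 26.5, 21.2 and 24.3 CPM in normal-diet livers, again without overlap. Its log2 fold change was -0.46 ± 0.157 (adjusted p = 0.0452). The call is narrow: the adjusted p was 0.149 without normal-diet replicate 1, 0.0993 without normal-diet replicate 3, 0.0551 without HFD vehicle replicate 1 and 0.0593 without HFD vehicle replicate 4. Without the libraries that carry acinar transcripts, which leaves 1 normal-diet and 2 HFD vehicle livers, the log2 fold changes were -0.62 for Kdr (adjusted p = 0.252) and -0.43 for Stab1 (adjusted p = 0.445).

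The other scavenger and lectin receptors were not called on the high-fat diet. Stab2 averaged 31.7 ± 5.37 CPM in HFD vehicle livers (SD, n = 4) and 26.1 ± 3.71 CPM in normal-diet livers (SD, n = 3), a log2 fold change of 0.28 ± 0.158 (adjusted p = 0.209). Lyve1 averaged 9.35 ± 2.89 CPM in HFD vehicle livers and 6.92 ± 1.58 CPM in normal-diet livers, with an adjusted p of 0.216. These were the only members of the 10 with a positive fold change in this comparison. Clec4g had a log2 fold change of -0.19 (adjusted p = 0.436), Fcgr2b of -0.04 (adjusted p = 0.878) and Oit3 of -0.33 (adjusted p = 0.23). The junction genes Cdh5 and Pecam1 had log2 fold changes of -0.12 and -0.15, and Vwf of -0.07, with SE of 0.201, 0.147 and 0.264, and none was called. For Fcgr2b, Cdh5 and Vwf the sign turned positive when libraries were scaled by their size alone, which moved the median of all genes to 0.14.

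DTMB on the high-fat diet was tested against the vehicle on the same diet. Lyve1 fell and was the only marker of the 10 called, where 12.7% of the 15597 genes tested were called, 6.04% lower and 6.64% higher. The log2 fold change was negative for 9 of the 10, with a median of -0.31 beside -0.01 for all genes tested. No marker separated the groups: the libraries of all 10 overlapped, while 9.35% of all genes lay lower and 10.5% higher without overlap.

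Lyve1 stood at 7.12, 4.03, 5.63 and 5.16 CPM in HFD DTMB livers, against 11.5, 7.57, 6.25 and 12.1 CPM in HFD vehicle livers. HFD vehicle replicates 1 and 4 were the high ones, and HFD DTMB replicate 1 was above HFD vehicle replicate 3. The log2 fold change was -0.77 ± 0.23 (adjusted p = 0.048). The adjusted p was 0.131 without HFD vehicle replicate 1, 0.0591 without replicate 2 and 0.131 without replicate 4. It was 0.107, 0.0926 and 0.118 without HFD DTMB replicate 2, 3 or 4, and 0.0285 without HFD DTMB replicate 1, where Stab2 was called as well (adjusted p = 0.0388) and 7.68% of all genes were called lower. Without the acinar libraries, which leaves 3 HFD DTMB and 2 HFD vehicle livers, Lyve1 had a log2 fold change of -0.35 (adjusted p = 0.532) and 0 genes of all were called.

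HFD vehicle replicate 3 bears on all of these values. It was the lowest of the 4 HFD vehicle livers for all 10 markers, whereas 24.9% of all genes were lowest in it. The 10 markers summed to 130 CPM there, against 192 to 208 CPM in the other HFD vehicle livers and 128 to 169 CPM in the HFD DTMB livers. The Kupffer cell markers and the monocyte markers were also lowest in it, at 121 CPM against 186 to 310 CPM, and at 29.8 CPM against 54.7 to 79.5 CPM in the other HFD vehicle livers. Summed hepatocyte markers were highest in it, at 80600 CPM against 68580 to 74170 CPM. Without that liver, 7 of the 10 markers were called lower with DTMB, where 8.47% of all genes tested were. These were Stab2, Lyve1, Oit3, Pecam1, Fcgr2b, Kdr and Cdh5, with adjusted p between 0.0105 and 0.0385. What set that liver apart was not tested, and the labels give no reason to leave it out. Being lowest for most markers was not particular to it. Of 3 normal-diet livers of this cohort, replicate 2 was lowest for 9 of the 10 (31.8% of all genes). HFD DTMB replicate 2 was lowest of 4 for 7 markers (20.6% of all genes). In the MCD cohort, MCD DTMB replicate 3 was lowest of 3 for 9 markers (36.2%), and normal-diet replicate 1 lowest of 4 for 7 (27.1%).

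The other 9 markers did not pass with all libraries, 8 with a negative log2 fold change and Clec4g with a positive one of 0.03. Cdh5 stood at 13.2, 10.1, 10.8 and 11.3 CPM in HFD DTMB livers, against 20.5, 14.2, 9.88 and 19.2 CPM in HFD vehicle livers, with a log2 fold change of -0.49 ± 0.188 (adjusted p = 0.0985). Stab2 stood at 28.2, 20.7, 25.5 and 20.1 CPM with DTMB, against 32.7, 33.5, 24.0 and 36.5 CPM with vehicle, with a log2 fold change of -0.42 ± 0.145 (adjusted p = 0.0739). In both genes 3 of the 4 vehicle livers were above every DTMB liver. Oit3 had a log2 fold change of -0.45 (adjusted p = 0.122), Pecam1 of -0.33 (adjusted p = 0.13) and Fcgr2b of -0.30 (adjusted p = 0.24). Kdr and Stab1, the genes called on the diet, had log2 fold changes with DTMB of -0.23 ± 0.13 and -0.18 ± 0.147 (adjusted p = 0.248 and 0.431). Clec4g averaged 27.0 ± 5.43 CPM in HFD DTMB livers and 26.4 ± 4.51 CPM in HFD vehicle livers (SD, n = 4 each), and Vwf 7.28 ± 1.65 CPM and 7.75 ± 2.35 CPM. DESeq2 called Lyve1, Stab2 and Cdh5 lower, where it called 1454 genes lower in all, 3.18% of 45777 without a count filter. The main fit called 942 lower.

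**Figure D2:**
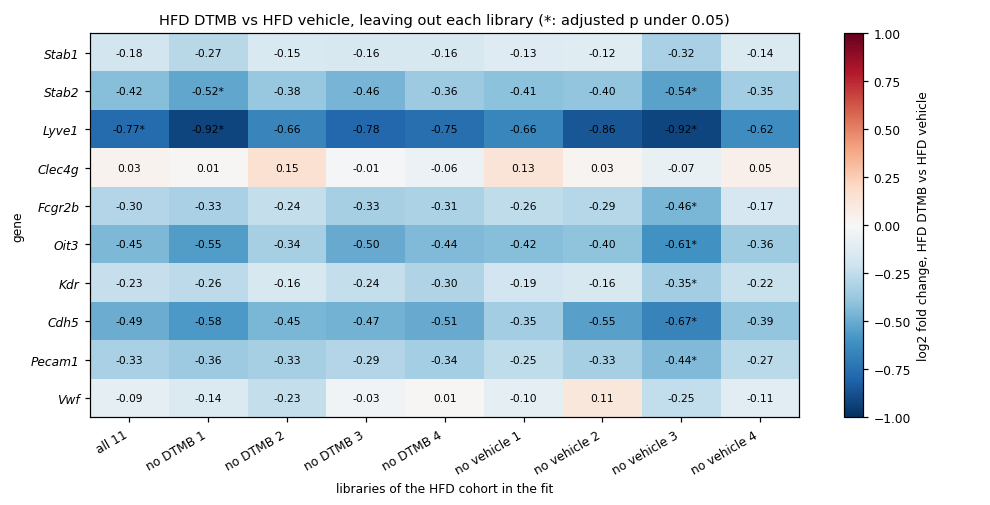
Log2 fold change of each marker between HFD DTMB and HFD vehicle livers (colour and number) with all 11 libraries of the cohort and with each DTMB or vehicle library left out; a star marks an adjusted p under 0.05. Lyve1 alone carries a star with all libraries, and 7 of the 10 markers carry one without the third vehicle liver.

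Set against normal diet, the HFD DTMB livers had the most markers called, 5 of 10 lower and none higher, where 29.2% of the genes tested were called, 13.5% lower and 15.7% higher. This comparison shares the normal-diet livers with the diet comparison and the DTMB livers with the DTMB comparison. The log2 fold change was below 0 for all 10 markers, with a median of -0.41 beside 0.01 for all genes. In 6 of the 10 every HFD DTMB liver was below every normal-diet liver, as in 16.5% of all genes (18.9% lay above in that way). The sixth, beside the 5 called ones, was Fcgr2b.

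Kdr stood at 20.3, 15.6, 19.3 and 21.4 CPM in HFD DTMB livers, against the 32.6 to 35.5 CPM of normal-diet livers, a log2 fold change of -0.84 ± 0.139 (adjusted p = 0.00096). Oit3 stood at 13.5, 8.07, 12.3 and 10.7 CPM in HFD DTMB livers, against 19.8, 17.0 and 20.6 CPM in normal-diet livers, a log2 fold change of -0.78 ± 0.197 (adjusted p = 0.0109). Stab1 stood at 18.3, 14.1, 14.6 and 14.5 CPM in HFD DTMB livers, against the 21.2 to 26.5 CPM of normal-diet livers, a log2 fold change of -0.64 ± 0.157 (adjusted p = 0.00939). These 3 genes were called without each of the 7 libraries in turn. The junction genes fell as well but less firmly. Cdh5 had a log2 fold change of -0.61 ± 0.201 (adjusted p = 0.038) and Pecam1 of -0.47 ± 0.147 (adjusted p = 0.0302). Cdh5 was called in 1 of 7 fits that left out 1 library, that without HFD DTMB replicate 1, and its adjusted p in the other 6 ran from 0.0515 to 0.113. Pecam1 was called in 3 of 7, with an adjusted p of 0.134 without normal-diet replicate 1, 0.0547 without normal-diet replicate 3, 0.0514 without HFD DTMB replicate 2 and 0.0736 without HFD DTMB replicate 3. With the acinar libraries left out, which leaves 1 normal-diet liver and 3 HFD DTMB livers, none of the 5 was called (adjusted p = 0.12 to 0.55) and all kept a negative log2 fold change, from -0.78 for Kdr to -0.20 for Pecam1.

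On the methionine- and choline-deficient diet the hyaluronan receptors Stab2 and Lyve1 rose, and no marker of the 10 fell. They are 2 of 10 called higher, where 41.3% of the 16037 genes tested were called, 20.3% higher and 21% lower, so the share is near that of all genes. The median log2 fold change of the 10 was 0.23, beside 0.00 for all genes tested. No marker separated the groups without overlap, while 17.8% of all genes lay higher and 19.9% lower in that way.

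Stab2 stood at 29.6, 30.1, 30.2 and 24.3 CPM in MCD vehicle livers, against 16.1, 24.5, 21.4 and 18.6 CPM in normal-diet livers, a log2 fold change of 0.50 ± 0.128 (adjusted p = 0.00832). MCD vehicle replicate 4 was just below normal-diet replicate 2, and the other MCD vehicle livers were above every normal-diet liver. Lyve1 stood at 5.37, 15.4, 8.97 and 18.6 CPM in MCD vehicle livers, against 8.19, 1.83, 3.56 and 3.13 CPM in normal-diet livers. The spread within both groups was wide, and MCD vehicle replicate 1 was below normal-diet replicate 1. The log2 fold change of Lyve1 was 1.53 ± 0.445 (adjusted p = 0.0165). Both genes were called without each of the 8 libraries in turn. Normal-diet replicate 4, the library that carries acinar transcripts, is 1 of these 8 (adjusted p without it = 0.0266 for Stab2 and 0.0457 for Lyve1).

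Stab1 stood at 19.8, 32.3, 24.1 and 24.0 CPM in MCD vehicle livers, against 19.1, 20.3, 20.1 and 15.6 CPM in normal-diet livers. Its log2 fold change of 0.42 ± 0.157 fell just outside the threshold (adjusted p = 0.0512) and inside it with DESeq2 (adjusted p = 0.0342). Pecam1 averaged 15.02 ± 1.70 CPM in MCD vehicle livers and 12.4 ± 1.03 CPM in normal-diet livers (SD, n = 4 each; adjusted p = 0.0938), and Vwf 9.59 ± 0.789 CPM and 6.32 ± 2.62 CPM (adjusted p = 0.139). Kdr, called on the high-fat diet, averaged 22.5 ± 0.898 CPM in MCD vehicle livers and 22.3 ± 2.70 CPM in normal-diet livers (log2 fold change 0.01 ± 0.133). Oit3 and Fcgr2b had log2 fold changes of 0.18 and 0.06, and Clec4g and Cdh5 of -0.26 and -0.18, none called. Clec4g was called lower in 1 of the 8 fits that left out 1 library, that without MCD vehicle replicate 2 (adjusted p = 0.0457). Scaling by library size alone moved the median of all genes to 0.47 in this comparison, and the cause was not tested. Under it 55.2% of all genes were called, 7.3% of all lower and the other called genes higher. In that setting 8 of the 10 markers were called higher, and the signs of Clec4g (0.22) and Cdh5 (0.28) turned positive. Only differences relative to the bulk of genes are therefore given here.

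DTMB on the deficient diet gave no called marker: 0 of 10, with 1 of the 16037 genes tested called, which is 0.00624%. The log2 fold change was negative for all 10 markers, with a median of -0.21 beside 0.02 for all genes, and DESeq2 also called 0 of the 10. In 3 of the 10, Stab1, Oit3 and Pecam1, every MCD DTMB liver was below every MCD vehicle liver. This held in 3.27% of all genes tested, while 2.59% lay above in that way. MCD DTMB replicate 3 was the lowest of the 3 MCD DTMB livers for 9 of the 10 markers, and for 36.2% of all genes. The 10 markers summed to 137 CPM in it, against 159 CPM in replicate 1 and 175 CPM in replicate 2.

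Stab1 stood at 17.6, 19.2 and 13.9 CPM in MCD DTMB livers, against 19.8, 32.3, 24.1 and 24.0 CPM in MCD vehicle livers (log2 fold change -0.57 ± 0.172). Oit3 stood at 13.7, 14.2 and 11.4 CPM with DTMB, against 17.7, 18.6, 15.3 and 15.8 CPM with vehicle (log2 fold change -0.36 ± 0.125). Pecam1 stood at 12.6, 13.2 and 9.88 CPM with DTMB, against 13.7, 16.4, 13.4 and 16.6 CPM with vehicle (log2 fold change -0.33 ± 0.135). The groups of these genes lie close together at their edges, and the adjusted p was 0.919 for each. Lyve1 had the most negative fold change, -0.91 ± 0.477, at 7.28, 5.68 and 6.32 CPM with DTMB against the 5.37 to 18.6 CPM of MCD vehicle livers, which lie on both sides of the DTMB livers. Stab2 averaged 27.5 ± 1.12 CPM in MCD DTMB livers (SD, n = 3) and 28.5 ± 2.83 CPM in MCD vehicle livers (SD, n = 4). Against normal diet, Stab2 was the only marker called in MCD DTMB livers, higher by 0.45 ± 0.138 on the log2 scale without overlap (adjusted p = 0.0261), where 32.6% of genes were called, 16.2% higher and 16.4% lower, and 21.7% lay above and 22.4% below without overlap. In the same comparison 7 of the 10 markers had a negative log2 fold change, and every MCD DTMB liver was below every normal-diet liver for Cdh5 (-0.37 ± 0.15, adjusted p = 0.0794), which was not called. The Stab2 call was lost without normal-diet replicate 1 (adjusted p = 0.0594) or 4 (adjusted p = 0.0655), and without MCD DTMB replicate 1 (adjusted p = 0.0865), 2 (adjusted p = 0.0597) or 3 (adjusted p = 0.0563).

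The difference between the diet responses of the cohorts was tested in 1 fit of all 22 libraries. The response of Stab1 was more positive on the deficient diet than on the high-fat diet by 0.91 ± 0.236 on the log2 scale (adjusted p = 0.00527), and that of Kdr by 0.65 ± 0.201 (adjusted p = 0.0168). Both were called without each of the 15 libraries in turn. They are 2 of 10 called, where 35.3% of the 16541 genes tested were called, 16.8% in that direction and 18.5% in the other. The share of markers is thus near that of all genes called in that direction. Stab1 and Kdr are also the genes whose HFD vehicle livers lay below normal-diet livers, and the same HFD-cohort libraries enter both tests. Without the acinar libraries the differences were 0.79 for Stab1 (adjusted p = 0.159) and 0.63 for Kdr (adjusted p = 0.231). Diet, cohort and normal-diet group change together between the cohorts and cannot be told apart. For the response to DTMB, 0 of the 10 markers differed between the cohorts and 0 of the 16541 genes tested were called, 0% in either direction. None of the 10 had an unadjusted p below 0.05 and DESeq2 called 0 of the 10, with differences from -0.41 for Stab1 to 0.36 for Stab2 and SE between 0.198 and 0.554.

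**Figure D3:**
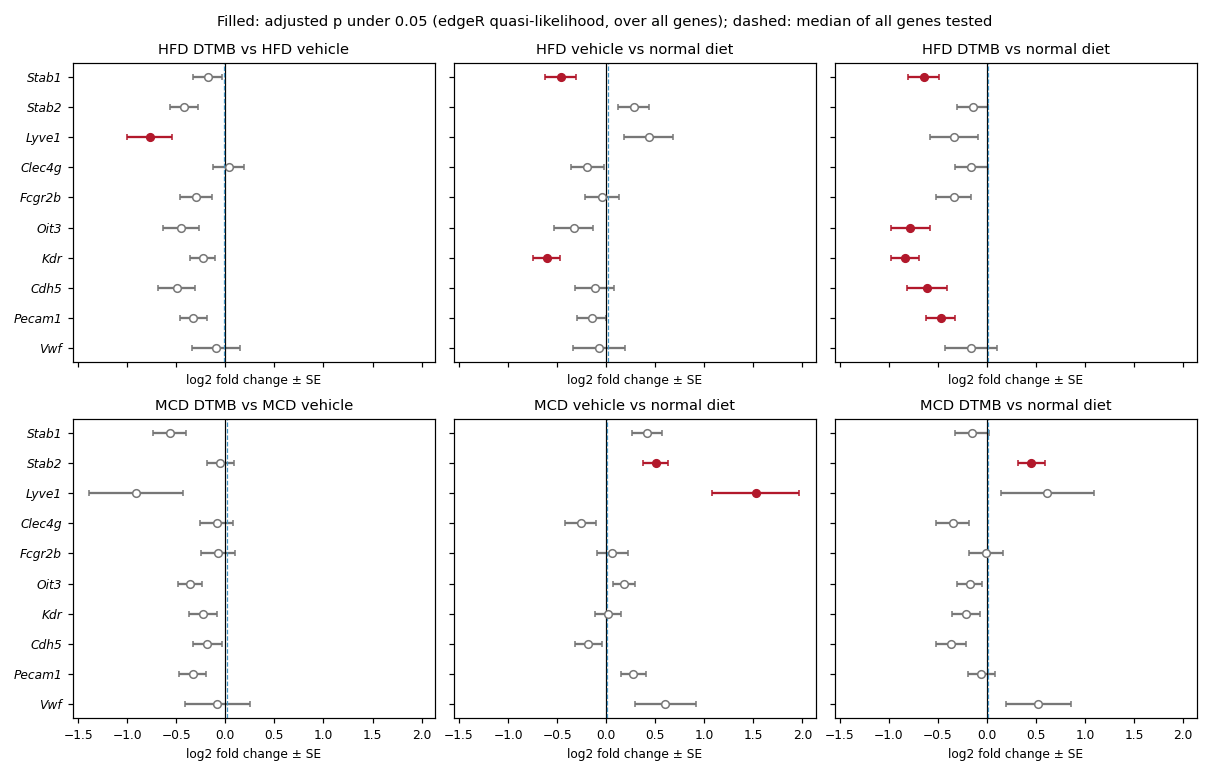
Log2 fold change ± SE of the 10 markers in the 3 comparisons of each cohort (top, HFD; bottom, MCD); filled points have an adjusted p under 0.05 and the dashed line is the median of all genes tested. In HFD DTMB against normal-diet livers all 10 points lie below 0 and 5 are filled, and in MCD DTMB against MCD vehicle livers all 10 lie below 0 and none is filled.

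Other endothelial genes were read from lists chosen with earlier results of these data known. Which cells of the whole liver these transcripts came from, here and below, was not tested. With library size alone, 6.6% of all genes were called lower on the high-fat diet and 15.3% with DTMB on it. Of 20 other sinusoidal genes, 7 fell and none rose in HFD vehicle against normal-diet livers, where 12.6% of all genes were called lower and 15.2% higher. The most firmly called were Bmp6 (log2 fold change -1.40, adjusted p = 9.6e-05) and Bmp2 (-0.63, adjusted p = 0.00463), the bone morphogenetic proteins with which sinusoidal cells set hepcidin in hepatocytes, and their median was -0.29. That count was 3 with library size alone and 1 without the acinar libraries. Of 20 other pan-endothelial genes, 1 rose, the sphingosine-1-phosphate receptor S1pr1 (0.80, adjusted p = 9.79e-05), and 1 fell, the VEGF receptor Flt1 (-0.54, adjusted p = 0.0315). Without the acinar libraries 1 of these 20 was called higher and 0 lower. Of 16 tested genes of continuous endothelium and capillarization, 5 rose, led by the matricellular protein Sparc (0.71, adjusted p = 0.00605), and 1 fell, the basement membrane protein Nid2 (-1.42, adjusted p = 6.36e-05). In this HFD comparison the medians of the sinusoidal list and the capillarization list were -0.29 and 0.45. On the deficient diet both medians were positive, 0.34 and 0.86. The 5 higher and 1 lower of the capillarization list became 2 and 1 with no count filter, 1 and 1 with all 22 libraries in 1 fit, and 0 and 1 without the acinar libraries.

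With DTMB on the high-fat diet, where 6.04% of all genes were called lower and 6.64% higher, none of the 20 other sinusoidal genes was called, with a median log2 fold change of -0.25. Of 8 stellate cell markers 1 fell and none rose in this comparison, and the part of such cells in the lists was not tested. Of the 16 capillarization genes 6 fell and none rose, led by the basement membrane genes Col4a2 (-0.90, adjusted p = 0.0109) and Nid1 (-0.75, adjusted p = 0.0109), with a median of -0.60. That count was 10 with library size alone, 2 with all 22 libraries in 1 fit and 0 without the acinar libraries. Of the 20 pan-endothelial genes 2 fell, the transcription factor gene Fli1 (-0.82, adjusted p = 0.0431) and Cd93 (-0.68, adjusted p = 0.0489), and neither was called with all 22 libraries in 1 fit or without the acinar libraries. Of 13 adherens and tight junction genes around VE-cadherin 4 fell, led by vinculin, Vcl (-0.57, adjusted p = 0.00987), and 1 rose, occludin, Ocln (0.59, adjusted p = 0.0144); hepatocytes and bile duct cells express these as well. None of these junction genes was called without the acinar libraries. Vegfa, the ligand of the Kdr receptor, rose (0.41, adjusted p = 0.036) as the only called gene of 8 VEGF ligands and co-receptors tested, and Kdr did not pass in this comparison. Vegfa was not called without the acinar libraries.

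On the deficient diet, 20.3% of all genes were called higher and 21% lower. Of the 20 other sinusoidal genes 4 rose and 2 fell, led by Rspo3, a Wnt enhancer of central vein endothelium (0.86, adjusted p = 0.000265), and Gata4, a transcription factor of sinusoidal identity (-0.99, adjusted p = 0.000939). With library size alone 55.2% of all genes were called, 7.3% of all lower and the other called genes higher. In that setting 14 of the sinusoidal genes were called higher and 1 lower. Of the pan-endothelial genes 5 rose and 1 fell (10 and 1 with library size alone), with Cd93 at 1.91 (adjusted p = 0.0007) and S1pr1 at -1.72 (adjusted p = 0.000583). Of 17 capillarization genes 10 rose and 1 fell. The leukocyte adhesion genes Vcam1 (2.70, adjusted p = 0.00021) and Icam1 (1.36, adjusted p = 0.000251) were the most firmly called; both are also expressed by stellate cells or leukocytes. Of 7 tested genes of hyaluronan uptake and breakdown 5 rose and none fell, which include Stab2 and Lyve1 themselves, with the hyaluronan receptor Cd44 called most firmly (2.16, adjusted p = 0.00202). Of 8 tested partners and regulators of von Willebrand factor 6 rose, led by Itgb3 (1.71, adjusted p = 0.000141), while Vwf did not pass. Under DTMB on this diet no gene of any endothelial list was called.

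**Figure D4:**
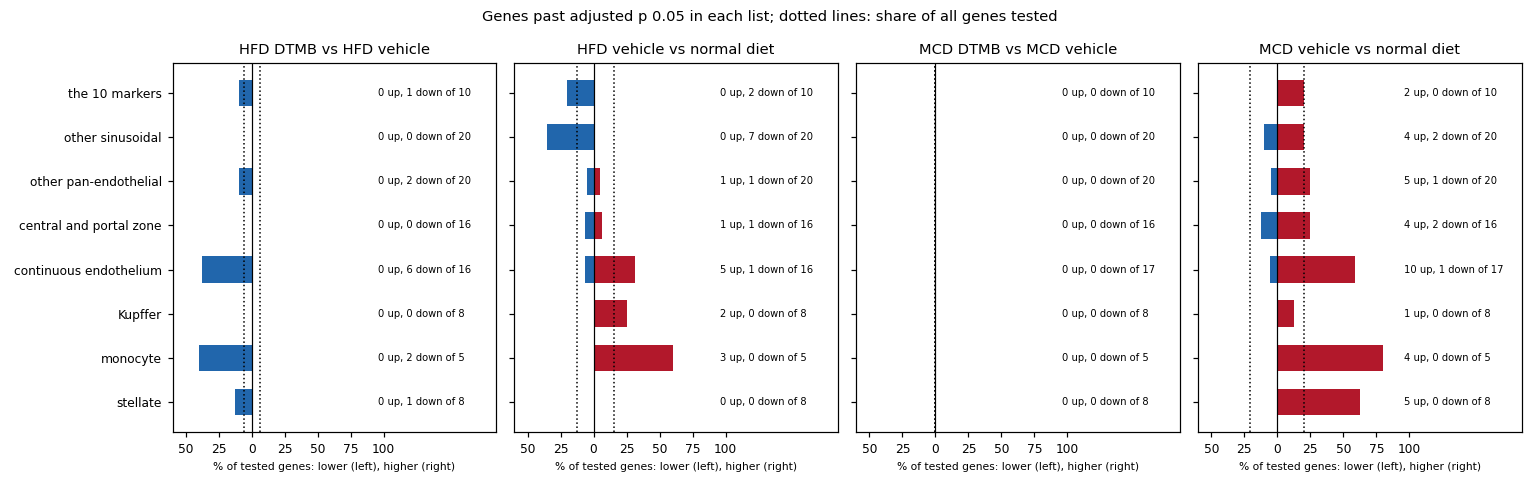
Share of tested genes called higher (red, right) or lower (blue, left) in 8 gene lists for 4 comparisons, with the counts printed at the right and dotted lines at the share of all genes tested. In MCD vehicle against normal-diet livers 10 of 17 continuous-endothelium genes are higher, and of the 10 markers 2 are higher, near the dotted line on that side, and 0 are lower, where 21% of all genes are.

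Several of the 10 genes are also expressed outside endothelium. Stab1, Lyve1 and Fcgr2b are known from macrophages, Fcgr2b from B cells, and Pecam1 and Vwf from platelets and megakaryocytes. Beside the counts below, 15.2% of all genes were called higher on the high-fat diet and 6.04% lower with DTMB on it. On the deficient diet 20.3% were called higher and 21% lower, and 16.4% were lower in MCD DTMB than in normal-diet livers. The 8 Kupffer and resident macrophage markers summed to 130 to 200 CPM in HFD DTMB livers, 121 to 310 CPM in HFD vehicle livers and 87.1 to 144 CPM in normal-diet livers of that cohort, with 2 of 8 called higher on the diet and none called with DTMB. In the MCD cohort they summed to 242 to 342 CPM with DTMB, 157 to 486 CPM with vehicle and 99.9 to 403 CPM on normal diet. There 1 of 8 was called higher on the diet and none with DTMB. The 5 monocyte markers summed to 28.8 to 43.5 CPM in HFD DTMB, 29.8 to 79.5 CPM in HFD vehicle and 20.4 to 40.2 CPM in normal-diet livers, with 2 of 5 lower with DTMB and 3 of 5 higher on the diet. In the MCD cohort they summed to 85.6 to 180 CPM with DTMB, 136 to 330 CPM with vehicle and 30.2 to 93.7 CPM on normal diet, with 4 of 5 higher on the diet. The median log2 fold change of the monocyte markers was 1.98 on the high-fat diet, where Kdr and Stab1 fell, and -1.30 with DTMB on that diet, where Lyve1 fell. On the deficient diet, where Lyve1 rose, it was 2.47, and with DTMB there it was -0.84. Without the acinar libraries no Kupffer or monocyte marker was called in either of these HFD comparisons. Of the 4 hepatocyte markers 3 fell on the deficient diet, where Stab2 and Lyve1 rose, with a median log2 fold change of -1.26 over the 4, and 3 were also lower in MCD DTMB than in normal-diet livers (-1.10). In the HFD cohort 1 of the 4 hepatocyte markers was called higher on the diet and 1 lower, with a median log2 fold change of -0.22. There 12.6% of all genes were called lower. With DTMB on the high-fat diet 2 of the 4 were called higher and 0 lower, with a median of 0.24, where 6.64% of all genes were called higher. The part of these cell types in the marker values was not tested. Platelet markers summed to at most 3.61 CPM and B cell markers to at most 5.41 CPM in any library. None of 5 lymphatic endothelial markers was called in any of the 8 comparisons. The 8 stellate cell markers, from the cell type next to sinusoidal endothelium, had 5 called higher on the deficient diet and 0 on the high-fat diet.

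The markers varied together within groups, as a description across the 22 libraries with each library set against its group mean. The Pearson correlations over all pairs ran from -0.163, between Lyve1 and Vwf, to 0.812, between Oit3 and Kdr, with a median of 0.602. Oit3 followed the mean of the other 9 most closely (r = 0.865) and Fcgr2b, Pecam1 and Stab1 came next (r = 0.843, 0.84 and 0.836). Lyve1 (r = 0.185) and Vwf (r = 0.42) followed it least. Points of 1 group share its mean, and all points of a library share its depth and scaling. Among 11027 other genes, the 6 whose deviations correlated best with the mean of the 10 were Gimap6 (r = 0.916), Adgrf5 (r = 0.911), Ptprb (r = 0.873), Hk1 (r = 0.872), Arhgap45 (r = 0.869) and Cyyr1 (r = 0.857). Adgrf5 encodes an adhesion receptor and Ptprb the phosphatase VE-PTP that binds VE-cadherin; Ptprb is also in the sinusoidal list above.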

How the data were processed

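Poly(A) RNA of 22 livers was sequenced with a stranded kit, per the labels' protocols. The authors deposited raw counts per gene for each cohort; the submitters' processing notes name the mm10 build, StringTie 2.1.3b and HISAT2 2.1.0, with Trimmomatic 0.38 and FastQC 0.11.7, without saying how the counting was done. The values were used as deposited. Replicates are separate samples per the labels; where nothing says they are separate animals, p-values measure only the spread between samples.

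Each cohort was fitted with its 3 groups in edgeR 4.0.16 under R 4.3.3 (filterByExpr with a minimum count of 10 and total of 15, TMM, quasi-likelihood F test). Differences between cohorts came from 1 fit of all 22 libraries. P-values were Benjamini-Hochberg adjusted over all genes tested with a threshold of 0.05, and the SE is the log2 fold change over the square root of F. The fits were tested on simulated data first. DESeq2 1.42.0, other scalings and filters, a replicate block and left-out libraries were tried as alternatives, and figures were drawn with matplotlib 3.10.9. Counts of 81 to 2448 per marker and library limit the precision.

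Members and lists were chosen with earlier results of these data known. Named genes are all 10 members, the list genes of smallest p in a comparison (up to 2 called) and the 6 genes most like the members among those with a mean of at least 1 CPM. Replicate numbers were not treated as pairs. The deviations of same-numbered libraries from their group means correlated at -0.444 to 0.339 among HFD-cohort pairs of groups, and at -0.269 to 0.0826 among those of the MCD cohort.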

Additional observations from a re-analysis of the deposited data

Results flagged for a closer look

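The 10 markers in the 4 groups of 4 livers give 40 sets of values. In 4 of these sets 1 library stood far from the other 3. Chance gives about 1 in 20 for a single set, and the sets are not independent, since the markers vary together. Stab1 was 12.0 CPM in HFD vehicle replicate 3, against 18.9 to 19.6 CPM in the other HFD vehicle livers. That liver was also the lowest of its group for the other 9 markers. Stab1 was 18.3 CPM in HFD DTMB replicate 1, against 14.1 to 14.6 CPM in the other HFD DTMB livers. Stab2 was 24.3 CPM in MCD vehicle replicate 4, against 29.6 to 30.2 CPM in the other MCD vehicle livers. In the MCD cohort, Fcgr2b was 14.5 CPM in the first normal-diet liver, against 20.8 to 21.8 CPM in the other normal-diet livers there.

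The response to diet differed between the cohorts for 2 of the 10 markers in the test of the difference itself. Of the 16541 genes tested, 35.3% were called there, 16.8% in the direction of these markers, so the share of markers is near that of all genes. The values without the acinar libraries are given with the test above. Stab1 differed by 0.91 and Kdr by 0.65 on the log2 scale, deficient diet minus high-fat diet, and both fold changes were negative on the high-fat diet.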

How the results depend on the processing

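The fold changes of the markers kept their direction and their side of the threshold in 148 of 170 refits for HFD vehicle against normal diet, 154 of 180 for HFD DTMB against HFD vehicle, 62 of 85 for HFD DTMB against normal diet, 158 of 180 for MCD vehicle against normal diet, 165 of 170 for MCD DTMB against MCD vehicle, and 42 of 46 for the called markers of the cohort difference in diet response. For Stab2 in MCD DTMB against normal diet it was 9 of 17, and the other 8 lost the call. The counts of called markers moved as follows, and the cause was not tested. For HFD vehicle against normal diet, 2 became 1 with library size alone, no count filter, only the 2 groups compared or all 22 libraries in 1 fit. The shares of all genes called were 28.2%, 16%, 26.3% and 18.3%, in that order, beside 27.8% in the main fit. For HFD DTMB against HFD vehicle, 1 became 3 with DESeq2, 2 with library size alone, and 0 with no count filter or all 22 libraries. The shares of all genes called were 6.34% (of 45777 unfiltered genes), 17.9%, 5.67% and 3.28%, in that order, beside 12.7% in the main fit. With library size alone the counts were 3 for HFD DTMB against normal diet, 8 for MCD vehicle against normal diet, 2 for MCD DTMB against normal diet and 4 for the cohort difference in diet response. The shares of all genes called in that setting were 26.9%, 55.2%, 43% and 40.3%, in the same order. A required absolute log2 fold change of at least 1 left 1 marker for MCD vehicle against normal diet and 0 in every other comparison. Without the acinar libraries, an alternative chosen after seeing the data, 0 were called in the 3 HFD comparisons, in MCD DTMB against normal diet and in the cohort difference; it leaves 1 normal-diet liver in the HFD cohort.

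With a replicate block the count was 1 for HFD vehicle against normal diet and 0 for MCD DTMB against normal diet, and it stayed within 1.5 times of the unblocked count in the other comparisons. The replicate numbers are shared labels only, so this is no paired result.

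Leaving out each library gave 1 to 2 markers for HFD vehicle against normal diet, 3 to 5 for HFD DTMB against normal diet, 0 to 7 for HFD DTMB against HFD vehicle, 2 to 3 for MCD vehicle against normal diet, 0 to 1 for MCD DTMB against normal diet and 2 to 3 for the cohort difference. Without MCD vehicle replicate 2, the markers called on the deficient diet were 2 higher and 1 lower, the lower one Clec4g. The signs that turned belong to markers that were not called with all libraries. With library size alone they turned in HFD vehicle against normal diet for Fcgr2b (0.0916), Cdh5 (0.0163) and Vwf (0.0516), in HFD DTMB against HFD vehicle for Clec4g (-0.1226), and in MCD vehicle against normal diet for Clec4g (0.2207) and Cdh5 (0.284). Without the acinar libraries they turned for Vwf on the high-fat diet (0.4145) and Kdr on the deficient diet (-0.0194). With 1 library left out, the HFD vehicle against normal diet values ran from -0.2627 to 0.0547 for Cdh5, -0.1712 to 0.1196 for Fcgr2b and -0.272 to 0.2289 for Vwf. Those of HFD DTMB against HFD vehicle ran from -0.0712 to 0.1542 for Clec4g and -0.2494 to 0.1107 for Vwf. Those of MCD DTMB against MCD vehicle ran from -0.1928 to 0.0483 for Clec4g, -0.1851 to 0.0763 for Fcgr2b and -0.5393 to 0.1312 for Vwf. Those of MCD vehicle against normal diet ran from -0.0593 to 0.1204 for Fcgr2b and -0.0406 to 0.0925 for Kdr.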

Other observations

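Genes of stabilin ligands and of the receptors related to Fcgr2b were read as further lists. Of all genes tested, 15.2% were called higher on the high-fat diet and 6.04% lower with DTMB on it. On the deficient diet 20.3% were called higher. Of 5 genes of stabilin ligands, 4 rose in HFD vehicle against normal-diet livers: Gdf15, a stress-induced cytokine (log2 fold change 2.31, adjusted p = 0.00514), Sparc (0.71, adjusted p = 0.00605), Postn (0.90, adjusted p = 0.00864) and Tgfbi (0.42, adjusted p = 0.0285), the last 3 encoding matrix proteins. With DTMB on the high-fat diet, Sparc (-0.63, adjusted p = 0.0201) and Tgfbi (-0.41, adjusted p = 0.0427) fell, and on the deficient diet Tgfbi alone was called, higher (1.35, adjusted p = 0.000236). On the high-fat diet the count of stabilin ligands called was 1 without the acinar libraries and 1 with all 22 libraries in 1 fit, and with DTMB it was 0 under both. Of 6 genes of Fc gamma receptors and their adaptor, 2 rose on the high-fat diet, Fcgr1 (1.41, adjusted p = 0.017) and Fcgr4 (1.14, adjusted p = 0.0427), and 3 on the deficient diet, with Fcgr3 called most firmly (2.02, adjusted p = 0.000477). These receptors are expressed mainly by myeloid cells, whose monocyte markers were also higher on both diets; their part in the values was not tested. Of 6 angiopoietin and Tie genes, 1 was called on the high-fat diet, Angpt2, the vessel-destabilizing ligand, which rose (0.97, adjusted p = 0.0358). On the deficient diet 3 of the 6 were called higher and 0 lower, Angpt2 among them (1.16, adjusted p = 0.0159). The high-fat calls of the Fc gamma and Angpt2 genes were not made without the acinar libraries.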
